A study of Mus musculus with 6 samples.

Results

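The basement membrane that encloses each muscle fibre and its stem cells is a sheet of laminins, nidogens, collagen IV and heparan sulfate proteoglycans. The 10 genes examined encode the laminin chains *Lama2*, *Lama4*, *Lama5*, *Lamb1*, *Lamb2* and *Lamc1*, the nidogens *Nid1* and *Nid2*, perlecan (*Hspg2*) and agrin (*Agrn*). They were taken by symbol from a table of 22081 genes, and all 10 were listed and had a mean value above the filter used for testing. RNA-seq was performed on freshly isolated muscle stem cells (MuSCs), with 3 libraries of the genotype Control and 3 of the genotype Taf4asKO. In Taf4asKO mice (Pax7Cre ERT/Taf4a flox/flox), Cre recombinase under Pax7 control removed floxed exons of *Taf4* (formerly *Taf4a*), which encodes a subunit of the general transcription factor TFIID, after tamoxifen. Control animals were littermates that carried the floxed alleles as well, with or without the Cre allele, on a C57BL/6 background. Mice were adults of both sexes. Limb and trunk muscles were digested, and MuSCs were enriched by depletion of SCA1-, CD45- and CD31-positive cells and by sorting on the integrin encoded by *Itga7* or on a Pax7 reporter. Deletion was limited to cells that expressed *Pax7*, and sorted MuSCs were not fully pure on re-analysis, so that RNA of other cells could be included.

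The values are read counts per gene that the authors scaled by library size factors and rounded, called normalized counts below. Estimated reads per library were 10588144 to 17611845. The stem cell marker *Pax7* had 12082 to 13007 normalized counts in control and 10363 to 11164 in Taf4asKO libraries, without overlap. The groups did not overlap for 33.0% of all tested genes. Its log2 fold change of -0.21 did not reach the limits used below (adjusted p = 0.161, limma). The total of *Taf4*, 613, 534 and 478 normalized counts in control libraries and 631, 565 and 574 in Taf4asKO libraries, did not separate the groups (log2 fold change 0.13 ± 0.12, SE; adjusted p = 0.524, limma), and since a gene total does not resolve single exons, the groups rest here on the labels. The study's own checks of the deletion, made by other assays, were not analysed here. Control replicate 1 was the lowest of the 3 control libraries for 9 of the 10 genes, the exception being *Lama5*. It also had the lowest summed levels of the glial, endothelial, mural, fibro-adipogenic and tenocyte markers among the control libraries. Taf4asKO replicate 1 was likewise the lowest of its group for 9 of the 10 genes, the exception being *Lama2*. Log2 fold changes of the 10 genes without control replicate 1 are given beside the results. Leaving out this library alone is one-sided, and the ranges over all fits without 1 library are in the closing section. In bulk libraries, fewer cells of a type and less RNA per cell cannot be told apart.

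A laminin is a trimer of an alpha, a beta and a gamma chain, joined along a coiled coil. Laminins assemble into a network at the cell surface, where the alpha chain binds integrins and glycosylated dystroglycan. Nidogens and perlecan bridge this network to the separate network of collagen IV. In muscle, *Lama2* encodes the alpha chain of merosin, whose loss causes congenital muscular dystrophy, and agrin, the heparan sulfate proteoglycan that induces acetylcholine receptor clusters at the neuromuscular junction, also binds laminin and dystroglycan. MuSCs lie between the fibre membrane and this sheet, and the basement membrane is part of their niche. Vessel, nerve and connective tissue cells of muscle make basement membrane proteins as well.

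Promoter windows of RefSeq on GRCm38.p6, from 250 bases before to 50 after an annotated start, were matched to 7 of the 10 genes. Those of *Nid1*, *Lamb1*, *Agrn* and *Lama5* are shown 5′ to 3′ on the strand of the gene because these are the genes with a window whose RNA passed the test below. The *Nid1* window is chr13:13437352-13437651 on the plus strand, that of *Lamb1* chr12:31265043-31265342 on the plus strand, the first of 2 windows of *Agrn* chr4:156197439-156197738 on the minus strand and that of *Lama5* chr2:180225810-180226109 on the minus strand. Capitals mark CCAAT or its other strand ATTGG, the letters bound by the trimeric factor NF-Y, and GGGCGG or its other strand CCGCCC, the letters bound by SP family factors. Overlapping matches were counted separately.
Nid1: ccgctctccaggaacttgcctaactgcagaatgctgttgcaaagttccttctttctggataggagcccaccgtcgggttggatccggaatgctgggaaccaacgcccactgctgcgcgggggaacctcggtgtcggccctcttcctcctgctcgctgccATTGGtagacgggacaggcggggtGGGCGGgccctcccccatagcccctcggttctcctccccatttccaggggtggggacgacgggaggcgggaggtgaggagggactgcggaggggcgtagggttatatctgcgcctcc
Lamb1: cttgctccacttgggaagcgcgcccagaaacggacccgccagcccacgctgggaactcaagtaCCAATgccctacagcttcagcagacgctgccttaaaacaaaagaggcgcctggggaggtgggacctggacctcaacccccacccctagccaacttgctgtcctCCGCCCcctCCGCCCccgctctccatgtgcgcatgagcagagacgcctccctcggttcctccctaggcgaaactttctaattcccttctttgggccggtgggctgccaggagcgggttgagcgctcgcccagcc
Agrn: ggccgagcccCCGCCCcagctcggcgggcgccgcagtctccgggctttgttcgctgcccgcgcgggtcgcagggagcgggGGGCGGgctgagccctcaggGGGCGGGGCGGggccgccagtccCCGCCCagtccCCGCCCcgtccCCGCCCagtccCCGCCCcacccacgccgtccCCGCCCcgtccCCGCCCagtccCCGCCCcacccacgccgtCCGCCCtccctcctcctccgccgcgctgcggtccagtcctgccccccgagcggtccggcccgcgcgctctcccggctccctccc
Lama5: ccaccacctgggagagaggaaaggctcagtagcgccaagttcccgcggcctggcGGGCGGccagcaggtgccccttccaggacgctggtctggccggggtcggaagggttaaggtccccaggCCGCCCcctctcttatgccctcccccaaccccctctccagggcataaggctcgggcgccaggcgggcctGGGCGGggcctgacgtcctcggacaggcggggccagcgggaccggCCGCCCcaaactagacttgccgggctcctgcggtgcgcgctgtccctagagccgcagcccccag

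The 4 windows share GGGCGG but differ in its number. It occurs 1 time in the *Nid1* window, 2 times in that of *Lamb1*, 4 times in that of *Lama5* and 12 times in that of *Agrn*, whose matches follow one another at short spacing. Of the 7 genes with a window, 6 held GGGCGG, with *Lamb2* as the exception, whereas 35.7% of all 32851 RefSeq promoter windows of this length held it on either strand. CCAAT occurred only in *Nid1* and *Lamb1* among the 7 genes, against 37.4% of all windows. Its first base lies at position -91 in *Nid1* and at -187 in *Lamb1*, counted from the annotated start. TATAAA, searched on both strands, occurred in 0 of the 7 genes and in 13.6% of all windows. The *Lama5* window, from the gene that fell, had a GC content of 72.7%, that of *Agrn* 83.3%, that of *Nid1* 64.7% and that of *Lamb1* 63.7%. No window was matched to *Lama4*, *Lamc1* or *Nid2*. Such matches describe the letters and show no binding.

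To ask whether the components of the basement membrane differ together or singly, each gene was read out of a fit across all 18562 tested genes. The limits were 0.05 for the Benjamini-Hochberg adjusted p and 1.3-fold for the change, and a gene within both is said to have passed. *Nid1*, *Lamb1*, *Lama4* and *Agrn* were higher in the libraries labelled Taf4asKO and *Lama5* was lower, so that 5 of the 10 genes passed. Of all tested genes, 12.6% passed, 5.93% higher and 6.71% lower. The groups did not overlap for 7 of the 10 genes, 4 of them higher and 3 lower, compared with 33.0% of all tested genes, 16.6% higher and 16.4% lower. The median log2 fold change of the 10 genes was 0.28, beside 0.004 for all tested genes.

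**Figure D1:**
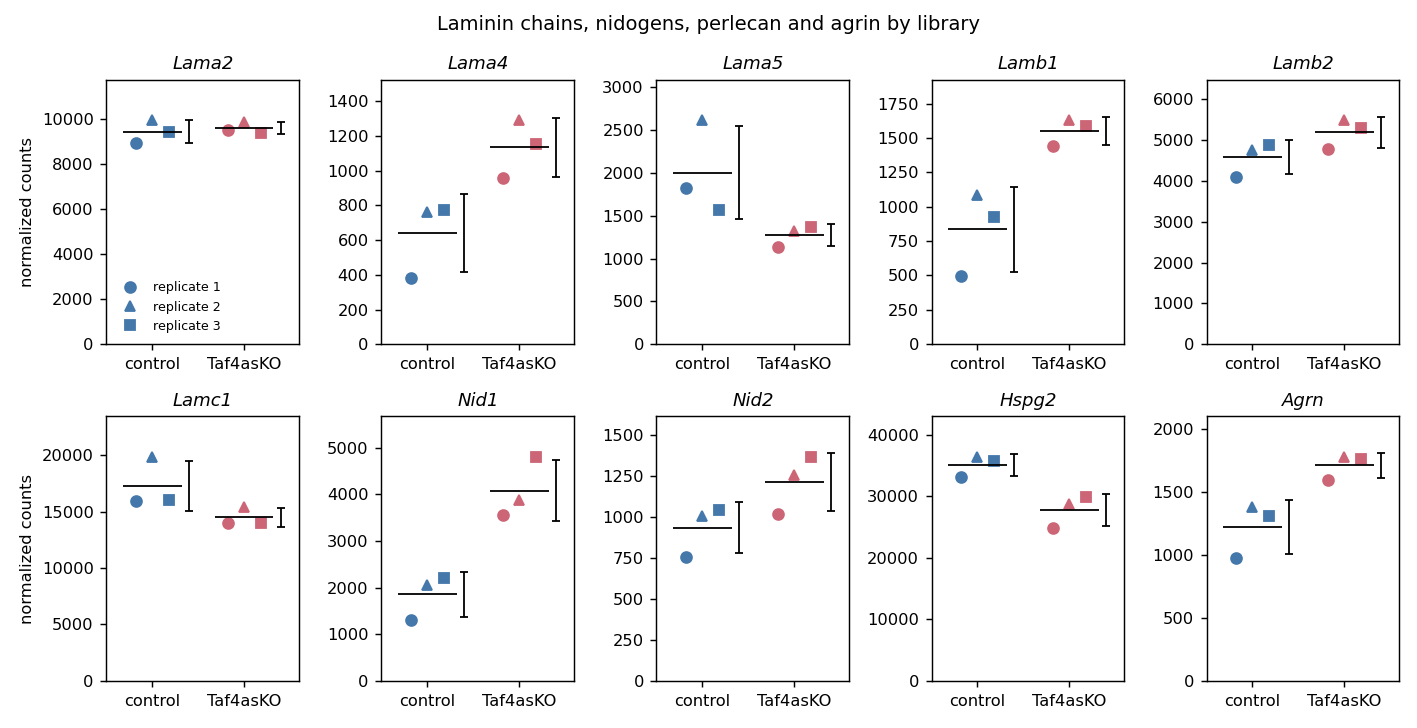
Normalized counts of the 10 genes (y axis of each panel, linear from 0) in each control and Taf4asKO library, with symbols for replicates 1 to 3, a line for the mean of 3 libraries and a bar for 1 SD. *Nid1*, *Lamb1*, *Lama4* and *Agrn* lie higher in all 3 Taf4asKO libraries, *Lama5*, *Lamc1* and *Hspg2* lie lower, and *Lama2* overlaps.

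**Figure D2:**
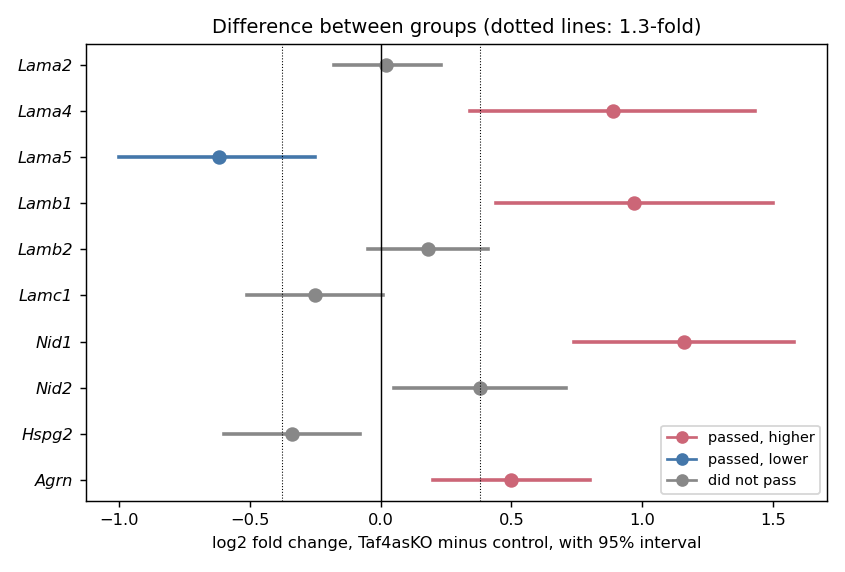
Log2 fold change of Taf4asKO minus control (x axis) for the 10 genes, with 95% intervals from the limma fit and dotted lines at a 1.3-fold change. The intervals of *Nid1*, *Lamb1*, *Lama4*, *Agrn*, *Lama5*, *Nid2* and *Hspg2* leave out 0, but the last 2 did not pass the adjusted test.

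The alpha chains, which carry the receptor binding sites, moved in different directions. *Lama4*, a chain found in vessel walls, nerve and developing muscle (chr10:38965515-39110188, plus strand), had 380, 765 and 776 normalized counts in control replicates 1, 2 and 3 and 957, 1292 and 1155 in Taf4asKO replicates 1, 2 and 3. All Taf4asKO libraries were above all control libraries, and control replicate 1 had the lowest value by a wide margin. The log2 fold change was 0.89 ± 0.25 (SE), a 1.85-fold rise (95% interval 0.34 to 1.43, adjusted p = 0.0406). Without control replicate 1 it was 0.55 (adjusted p = 0.0363). *Lama5* (chr2:180176373-180225859, minus strand), a chain of many epithelial and vascular basement membranes with strong integrin binding, had 1825, 2615 and 1570 normalized counts in control libraries and 1133, 1323 and 1368 in Taf4asKO libraries. The highest Taf4asKO library lay just under the lowest control library. *Lama5* fell by 0.62 on the log2 scale (SE 0.17, 1.54-fold lower, 95% interval -1.0 to -0.25, adjusted p = 0.0386). When libraries were corrected for the GC content and length of the transcripts, the log2 fold change was -0.50 and did not pass (adjusted p = 0.078), while with the replicate block added to this correction it passed (-0.50, adjusted p = 0.0153). Without control replicate 1 it was -0.67 and did not pass (adjusted p = 0.0546), and without control replicate 2, the highest library, it was -0.41 (adjusted p = 0.0391). *Lama5* transcripts are rich in GC (59.9%, beside a median of 49.1% for the tested genes). *Lama2* (chr10:26981285-27616843, minus strand), the chain of merosin and the most abundant of the 3 per length, had 8934, 9957 and 9442 normalized counts in control libraries and 9510, 9881 and 9390 in Taf4asKO libraries. These values interleaved, with a log2 fold change of 0.02 (95% interval -0.18 to 0.23, adjusted p = 0.9), an interval that lies within the 1.3-fold limits, and -0.016 without control replicate 1. *Lama2* shares 631 exon bases with *Gm48084* on the opposite strand, and whether the counting used strand is not stated.

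Of the beta chains *Lamb1* and *Lamb2*, the less abundant *Lamb1* rose. *Lamb1* (chr12:31265234-31329644, plus strand), the beta chain typical of early and vascular laminins, had 493, 1086 and 924 normalized counts in control libraries and 1439, 1630 and 1584 in Taf4asKO libraries. The 3 Taf4asKO libraries were close to each other and above all control libraries. The log2 fold change was 0.97 ± 0.24 (SE), or 1.96-fold (95% interval 0.44 to 1.5, adjusted p = 0.0258), and 0.63 without control replicate 1 (adjusted p = 0.0113). *Lamb2* (chr9:108479857-108490530, plus strand), the beta chain enriched at the neuromuscular junction, had 4107, 4747 and 4885 normalized counts in control libraries and 4778, 5492 and 5297 in Taf4asKO libraries. The groups overlapped, and the log2 fold change of 0.18 (95% interval -0.05 to 0.41, adjusted p = 0.278) did not pass, nor did the value of 0.11 without control replicate 1 (adjusted p = 0.607) or that of 0.29 with correction for GC content and length (adjusted p = 0.105). *Lamc1* (chr1:153218922-153332786, minus strand), the gamma chain shared by most laminins, had 15971, 19855 and 16020 normalized counts in control libraries and 13982, 15447 and 14009 in Taf4asKO libraries. Every Taf4asKO library was under every control library, but the log2 difference of -0.25 (95% interval -0.51 to 0.01) did not pass (adjusted p = 0.19), and was -0.30 without control replicate 1 (adjusted p = 0.192) and -0.15 without control replicate 2, its highest library (adjusted p = 0.283).

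The nidogens, which link laminin to collagen IV through binding to the gamma chain, differed in their calls, with *Nid1* past the limits and *Nid2* not past them in the unpaired fit. *Nid1* (chr13:13437551-13512269, plus strand) had 1311, 2060 and 2215 normalized counts in control libraries and 3553, 3888 and 4809 in Taf4asKO libraries. The lowest Taf4asKO value was well above the highest control value. Its log2 fold change of 1.16 ± 0.19 (SE), or 2.23-fold (95% interval 0.74 to 1.58, adjusted p = 0.0041), was the largest among the 10 genes. Without control replicate 1 it was 0.92 (adjusted p = 0.00352), and the call was kept in each of the 6 fits that left out 1 library. *Nid1* shares 143 exon bases with *Gm48682* on the opposite strand. *Nid2* (chr14:19751265-19811787, plus strand) had 758, 1007 and 1041 normalized counts in control libraries and 1017, 1256 and 1368 in Taf4asKO libraries. Taf4asKO replicate 1 lay among the control values, and each Taf4asKO library was above the control library of the same number. *Nid2* did not pass in the unpaired fit (log2 fold change 0.38 ± 0.15, SE; adjusted p = 0.127) and passed as higher in a fit blocked by replicate number (adjusted p = 0.015), which brought the count to 5 higher and 1 lower of the 10 genes, with 18.1% of all tested genes past the limits. The unpaired value of *Nid2* without control replicate 1 was 0.23 (adjusted p = 0.336). *Nid2* shares 437 exon bases with *Rtraf* on the opposite strand.

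Of the heparan sulfate proteoglycans, *Agrn* rose and *Hspg2* did not pass. *Agrn* (chr4:156165290-156197488, minus strand), which binds laminin through its amino-terminal domain, had 974, 1380 and 1314 normalized counts in control libraries and 1595, 1781 and 1760 in Taf4asKO libraries. All Taf4asKO libraries were above all control libraries. The log2 fold change was 0.50 ± 0.13 (SE), a 1.41-fold rise (95% interval 0.20 to 0.80, adjusted p = 0.0364), and without control replicate 1 it was 0.34 and did not pass (adjusted p = 0.0805). *Hspg2* (chr4:137468769-137570630, plus strand), the gene of perlecan and the highest of the 10 both in counts and per length, had 33114, 36428 and 35665 normalized counts in control libraries and 24794, 28704 and 29868 in Taf4asKO libraries. The groups did not overlap. The log2 difference of -0.34 ± 0.12 (SE, 95% interval -0.60 to -0.08) was under the 1.3-fold limit and did not pass (adjusted p = 0.0856). Its adjusted p was under 0.05 with limma-voom (0.0313), robust shrinkage of the variances (0.0392), the replicate block (0.0391) and a fibro-adipogenic marker covariate (0.0463). The log2 difference missed the 1.3-fold limit in each of these fits. It was -0.38 without control replicate 1 (adjusted p = 0.114). *Hspg2* transcripts have a GC content of 60.9%, and with correction for GC content and length the difference was -0.21 (adjusted p = 0.34).

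The calls of *Lamb1*, *Lama4*, *Agrn* and *Lama5* depended on all 3 Taf4asKO libraries. When any 1 of these was left out, *Nid1* alone of the 10 genes passed, while the log2 fold changes stayed between 0.93 and 1.02 for *Lamb1*, between 0.79 and 1.0 for *Lama4*, between 0.47 and 0.55 for *Agrn* and between -0.68 and -0.54 for *Lama5*. Among all tested genes, 1249, 980 and 956 passed without Taf4asKO replicates 1, 2 and 3, in place of 2347 with all libraries. Without control replicate 1, *Nid1*, *Lamb1* and *Lama4* passed. *Lamb1* and *Lama4* also missed the limit with robust shrinkage of the variances (adjusted p = 0.0646 and 0.0909).

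To order the genes by level, values were divided by the merged exon length of GENCODE M21. In control libraries perlecan and the gamma chain led, with 2451 ± 121 normalized counts per kilobase for *Hspg2* and 2089 ± 269 for *Lamc1* (SD, n = 3), whose ranges overlapped. *Lamb2* at 753 ± 68.3, *Lama2* at 578 ± 31.3 and *Nid1* at 268 ± 69.6 per kilobase followed, each below the range of the one before. From *Nid1* through *Nid2* (181 ± 29.9), *Lama5* (176 ± 47.8), *Agrn* (132 ± 23.5), *Lamb1* (84.1 ± 30.9) and *Lama4* (53.1 ± 18.7) neighbours overlapped in range. In Taf4asKO libraries the order changed in its lower part. *Nid1* reached 588 ± 93.7 per kilobase, in the range of *Lama2* at 587 ± 15.7. *Lamb1*, at 156 ± 10.1, lay above *Lama5*, at 112 ± 11, whereas in control libraries *Lama5* was the higher. *Hspg2* at 1942 ± 186 and *Lamc1* at 1750 ± 101 were still the highest, and *Lama4* at 94.0 ± 14.0 was still the lowest, with a range that overlapped that of *Lama5*.

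Since a trimer holds a single alpha and a single beta chain, the shares of *Lama2*, *Lama4* and *Lama5* among these 3 alpha chains and the ratios of related chains were computed within each library, where the scaling between libraries cancels. *Lama4* made up 4.26%, 7.02% and 8.24% of the per-kilobase sum of *Lama2*, *Lama4* and *Lama5* in control and 10.4%, 12.9% and 12.1% in Taf4asKO libraries. *Lama5* made up 21.7%, 25.4% and 17.7% in control and 13.1%, 14.0% and 15.2% in Taf4asKO libraries. The mean share of *Lama4* was thus 6.51% ± 2.04 and 11.8% ± 1.28, and that of *Lama5* 21.6% ± 3.89 and 14.1% ± 1.06 (SD, n = 3). *Lama2* held most of the sum in both groups, 71.9% ± 3.77 and 74.1% ± 2.10, and its groups overlapped (exact permutation test, two-sided, p = 0.6). These shares leave out *Lama1*, which was near the limit of detection, and *Lama3*, the alpha chain of epithelial anchoring laminins, which had 2041, 1434 and 3271 normalized counts in control libraries and 1132, 1830 and 1710 in Taf4asKO libraries (log2 fold change -0.48 ± 0.27, SE; adjusted p = 0.274). In a sum over all 5 alpha chains, computed after seeing the data, the mean share was 56.9% ± 3.22 in control and 62.7% ± 3.81 in Taf4asKO libraries for *Lama2*, 20.4% ± 7.58 and 15.3% ± 2.75 for *Lama3*, 5.14% ± 1.52 and 9.98% ± 0.792 for *Lama4*, and 17.4% ± 4.72 and 11.9% ± 0.637 for *Lama5* (SD, n = 3). The groups then overlapped for *Lama3* and not for *Lama2*, *Lama4* or *Lama5*.

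The ratios of related chains, each from normalized counts per kilobase of exon, were lower in Taf4asKO libraries. The log2 ratio of *Lamb2* to *Lamb1* was 3.76, 2.83 and 3.11 in control and 2.44, 2.46 and 2.45 in Taf4asKO libraries, or a mean ratio of 9.38 and 5.46. The log2 ratio of *Nid2* to *Nid1* was -0.37, -0.61 and -0.67 in control and -1.38, -1.21 and -1.39 in Taf4asKO libraries, or 0.685 and 0.398 as linear ratios. For these 2 ratios and for the shares of *Lama4* and *Lama5* the groups did not overlap, and the exact permutation test gave p = 0.1 for each, the smallest that 3 against 3 libraries allow (0.125 after adjustment over 5 values), so this test could not pass a limit of 0.05. Without control replicate 1 the difference of the log2 ratios, Taf4asKO minus control, was -0.523 for *Lamb2* to *Lamb1*, against -0.788 with it, and -0.689 for *Nid2* to *Nid1*, against -0.779.

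**Figure D3:**
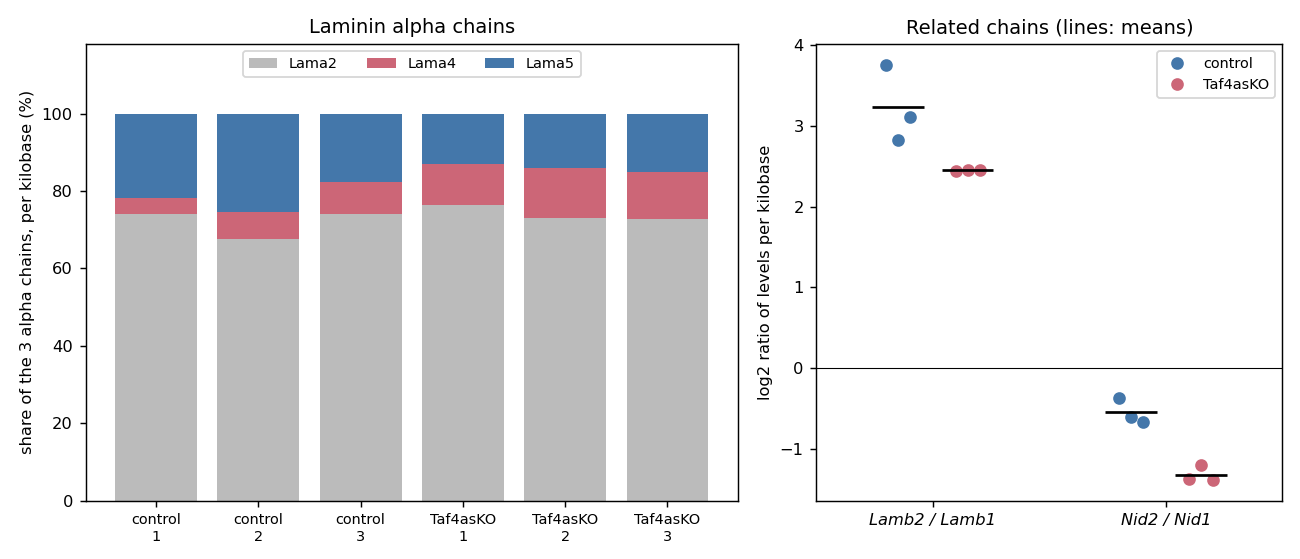
Left, share of each of 3 laminin alpha chains in their sum of normalized counts per kilobase of exon (y axis, %) in each library. Right, log2 ratios of *Lamb2* to *Lamb1* and of *Nid2* to *Nid1*, from the same per-kilobase values (y axis), with a dot for each library and a line for each mean. The *Lama4* part is larger and the *Lama5* part smaller in each Taf4asKO library, and both ratios are lower.

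Markers of other cell types moved with part of these results. Of 9 glial markers, 6 passed as higher and *Ngfr* passed as lower. *Sox10*, the transcription factor that defines Schwann cells, had 185, 534 and 420 normalized counts in control libraries and 734, 1016 and 900 in Taf4asKO libraries, with control replicate 1 again the lowest. Summed glial levels were 1704 to 3788 in control and 4424 to 5462 in Taf4asKO libraries. *Rgs5* and *Myh11* passed as higher among 9 mural markers, and 5 passed as higher with the replicate block. Of the 9, 6 had a log2 fold change above 0 and 3 below it (*Tagln*, -0.75, *Notch3*, -0.33, and *Acta2*, -0.31), and the 7 with an unadjusted p under 0.05 included *Tagln* and *Notch3*. Summed mural levels overlapped, at 24914 to 29226 and 25043 to 29513, whereas the mean log2 levels of this list, 8.91 to 9.5 in control and 9.51 to 9.83 in Taf4asKO libraries, did not. Of 10 endothelial markers 0 passed in limma, with or without voom weights on estimated reads, 4 passed with the replicate block and 7 had an unadjusted p under 0.05. Their sums were 953 to 1455 in control and 1570 to 2109 in Taf4asKO libraries, with *Tek* the largest part (692 to 858 and 923 to 960), and *Pecam1* had 31 to 86 and 77 to 142. The mean log2 levels of the endothelial list overlapped, with 4.21, 5.77 and 5.51 in control libraries and 5.58, 5.87 and 6.72 in Taf4asKO libraries. Of 12 fibro-adipogenic markers 1 passed as higher (*Gsn*) and 3 as lower (*Dpt*, *Col3a1* and *Cd34*), while with the replicate block 7 passed as higher and 3 as lower. Their median log2 fold change was 0.78, and their sums, of which *Col3a1* made up a large part, were 70797 to 101021 and 58886 to 83334. Tenocyte markers summed to 1994 to 14055 in control and 7109 to 16215 in Taf4asKO libraries, and myofibre markers to 5777 to 14195 and 6860 to 12309. In both lists 0 passed in limma, 0 had an unadjusted p under 0.05, and 0 passed with voom weights, while 4 tenocyte and 0 myofibre markers passed with the replicate block. Of 10 immune markers, 4 were in the table (summed 469 to 581 in control and 696 to 942 in Taf4asKO libraries) and 0 of these passed in limma or with voom weights, 1 with the block, and 2 had an unadjusted p under 0.05, *Lyz2* (log2 fold change 1.3) and *Cd79a* (-0.84). The difference in the sums was that of *Lyz2*, with 94 to 357 in control and 465 to 729 in Taf4asKO libraries, whereas the other 3 were at log2 fold changes below 0 and the mean log2 levels of the list overlapped. Of 8 MuSC markers, 2 passed as higher and 3 as lower, and their mean log2 levels, 11.84 to 11.87 in control and 11.74 to 11.83 in Taf4asKO libraries, did not overlap. No listed marker in the table was at 0 in all libraries.

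With the mean log2 level of the glial markers as a covariate, 0 of the 10 genes passed in limma, with 4 at an unadjusted p under 0.05, and 707 of all tested genes passed in place of 2347. The log2 fold change was then 0.56 for *Nid1* (adjusted p = 0.134), 0.088 for *Lamb1*, -0.006 for *Lama4*, 0.085 for *Agrn* and -0.89 for *Lama5* (adjusted p = 0.0828). With the mural markers 1 of the 10 genes passed (*Nid1*), with the endothelial markers 2 (*Nid1* and *Lama5*), and with the fibro-adipogenic markers all 5. The group accounted for 61.4% of the variance of the glial mean over the 6 libraries, 43.8% of that of the mural and 36.5% of that of the endothelial mean, so that these covariates take up part of the difference between the groups by construction. The part of other cell types in the results was not tested.

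**Figure D4:**
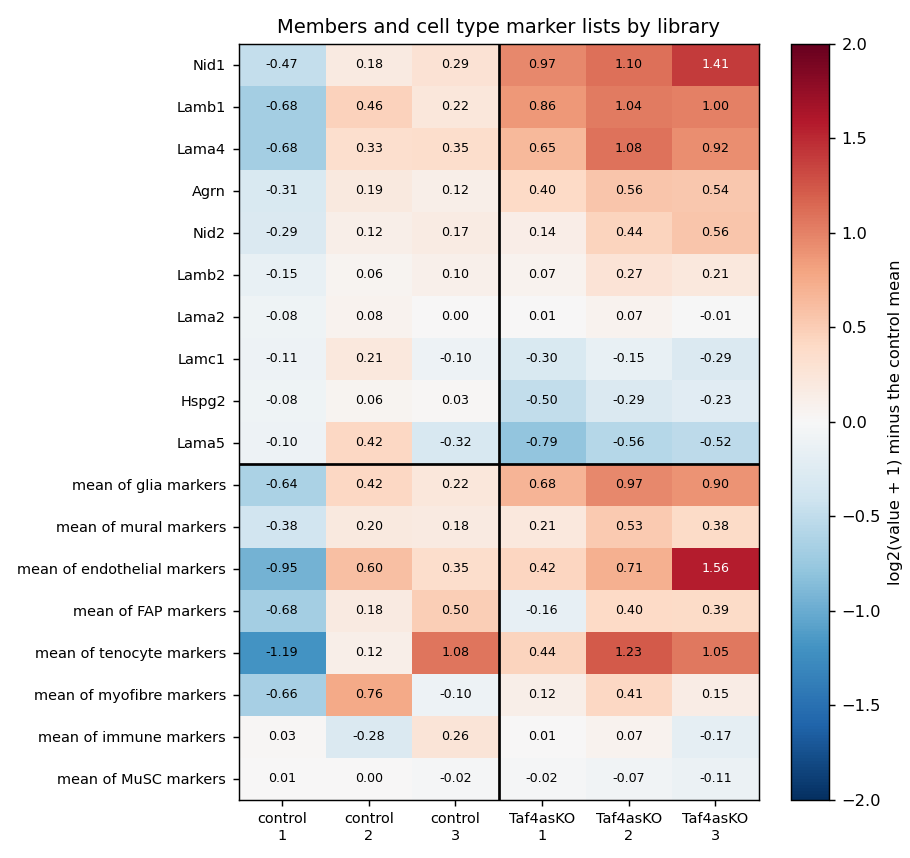
Difference of log2(value + 1) from the control mean (colour and number in each cell) for the 10 genes, above the line, and for the mean of each marker list, below it, in each library. In control replicate 1 *Nid1*, *Lamb1*, *Lama4* and *Agrn* and the glial, mural, endothelial, FAP (fibro-adipogenic) and tenocyte means are below the control mean, and the glial mean is higher in each Taf4asKO library than in any control library.

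Around the 10 genes, 88 further genes in 6 lists of basement membrane components, receptors and modifying enzymes were examined. Of these, 11 passed as higher and 14 as lower, and their median log2 fold change was 0.01. With the replicate block 18 passed as higher and 14 as lower. The shares of all tested genes past the limits, 12.6% and 18.1% with the block, apply to each list, and counts such as 1 of 6 or 4 of 22 are close to them. Among the other laminins and the laminin-related netrin *Ntn4*, 1 of 6 passed, *Ntn4*, at 1076, 1326 and 1292 normalized counts in control libraries and 1958, 2078 and 1961 in Taf4asKO libraries (log2 fold change 0.70 ± 0.10, SE; adjusted p = 0.00268). *Lama1* and *Lamb3* were near the limit of detection, with means of 9.17 and 12.7 normalized counts.

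Of 8 collagen genes of basement membranes, 2 rose and 1 fell. *Col4a2* had 8413, 11405 and 9985 normalized counts in control libraries and 15429, 16949 and 18838 in Taf4asKO libraries (log2 fold change 0.79 ± 0.13, SE; adjusted p = 0.0045). *Col4a1*, whose product joins that of *Col4a2* in one trimer, was named after its values were seen, and had 21322, 24931 and 22765 and 22337, 24168 and 26722 (log2 fold change 0.08 ± 0.12, SE; adjusted p = 0.678). The test of the difference between these 2 genes was not made. *Col18a1* rose by 0.54 on the log2 scale (adjusted p = 0.0361), and *Col15a1*, a collagen that links the basement membrane to the surrounding matrix, fell by 1.06 (adjusted p = 0.00744).

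Among 16 associated matrix proteins, 9 fell and 3 rose, the highest share of calls of the 6 lists, with a median log2 fold change of -0.57. The largest fall was that of *Fras1*, which with *Frem1* encodes parts of a complex that anchors epithelial basement membranes. *Fras1* had 874, 1222 and 768 normalized counts in control libraries and 312, 347 and 239 in Taf4asKO libraries (log2 fold change -1.66 ± 0.19, SE; adjusted p = 0.000697). *Frem1* fell by 0.91 (adjusted p = 0.0149), *Fbln2*, the gene of a laminin- and nidogen-binding fibulin, fell by 1.31 (adjusted p = 0.000797), *Pxdn*, the peroxidase that crosslinks collagen IV, fell by 0.87 (adjusted p = 0.00185), and *Hmcn1* fell by 0.86 (adjusted p = 0.00718). *Smoc1* rose by 1.10 on the log2 scale (adjusted p = 0.0045), *Tinagl1* by 1.04 (adjusted p = 0.0151), and *Egflam*, whose product pikachurin binds dystroglycan, by 0.96 (adjusted p = 0.04). *Serpinh1* and *P3h1*, which act in collagen folding, and *Sparc*, a collagen-binding glycoprotein, were named after their values were seen and fell by 0.72, 0.53 and 0.60, with adjusted p of 0.00535, 0.0113 and 0.023. *Colq*, at a mean of 12 normalized counts, was the remaining call.

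Of 22 receptors and their partners, 3 rose and 2 fell, and with the replicate block 6 passed as higher and 2 as lower. *Itga1*, a subunit of a collagen and laminin receptor, had 347, 682 and 712 normalized counts in control libraries and 1105, 1335 and 1305 in Taf4asKO libraries (log2 fold change 1.17 ± 0.24, SE; adjusted p = 0.011), and shares 685 exon bases with *Gm49395* on the same strand. The tetraspanin *Cd151*, a partner of laminin-binding integrins, rose by 0.72 (adjusted p = 0.00756). *Sdc4*, a heparan sulfate proteoglycan of the MuSC surface, had 5564, 5586 and 5814 in control and 12662, 9579 and 9266 in Taf4asKO libraries (log2 fold change 0.88 ± 0.12, SE; adjusted p = 0.00211). *Sgca*, of the sarcoglycan complex beside dystroglycan, fell by 1.87 (adjusted p = 8.23e-05), from 389, 421 and 425 normalized counts to 127, 108 and 101. *Itga7*, which encodes the laminin receptor subunit used in the sort, fell by 0.43 (adjusted p = 0.0377). *Dag1*, the gene of dystroglycan, named after its values were seen, did not pass (log2 fold change -0.27 ± 0.12, SE; adjusted p = 0.172), although its 3 Taf4asKO values, 22196, 25725 and 23083, lay under the control values of 27225, 31931 and 26376.

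Of 14 enzymes that glycosylate dystroglycan for laminin binding, 0 passed in limma, with voom weights or with the replicate block, and 3 had an unadjusted p under 0.05. Of 22 enzymes that build or edit heparan sulfate chains, carried by perlecan and agrin, 2 rose and 2 fell. *Xylt1*, which starts the chain, rose by 1.10 (adjusted p = 0.0447; 0.67 without control replicate 1), the sulfatase *Sulf1* rose by 0.55 (adjusted p = 0.015), and the sulfotransferase *Hs6st2* fell by 0.66 (adjusted p = 0.0126). The remaining call, *Hpse*, had a mean of 21.2 normalized counts.

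Of the 25 calls in these lists, 12 were kept in each of the 6 fits that left out 1 library. These were *Ntn4*, *Col4a2*, *Col15a1*, *Smoc1*, *Fbln2*, *Pxdn*, *Fras1*, *Hmcn1*, *Serpinh1*, *Sdc4*, *Cd151* and *Sgca*. *Egflam*, *Colq* and *Itga7* passed in 1 of the 6 fits and *Hpse* in 2, while *Col18a1*, *Sparc* and *Xylt1* passed in 3. *Col18a1* was lost without control replicate 1 or without Taf4asKO replicate 2 or 3, and *Sparc* and *Xylt1* without any 1 of the Taf4asKO libraries. *Tinagl1*, *P3h1* and *Sulf1* were lost without Taf4asKO replicate 2 or 3, *Frem1* without Taf4asKO replicate 1 or 3, *Itga1* without Taf4asKO replicate 2 and *Hs6st2* without Taf4asKO replicate 1. With the glial markers as a covariate 8 of the 25 calls remained, of which 7 were lower. They were *Sparc*, *Fbln2*, *Pxdn*, *Fras1*, *Frem1*, *Serpinh1* and *Sgca* among the genes that fell and *Sdc4* among those that rose, while *Col4a2* was at 0.45 (adjusted p = 0.156), *Itga1* at 0.32 (adjusted p = 0.337) and *Xylt1* at 0.04 (adjusted p = 0.955) on the log2 scale. Other calls were lost with little change in the log2 value, as for *Col15a1* at -1.18 (adjusted p = 0.065), *P3h1* at -0.58, *Hs6st2* at -0.64, *Itga7* at -0.48, *Hpse* at -2.75 and *Colq* at -1.47.

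**Figure D5:**
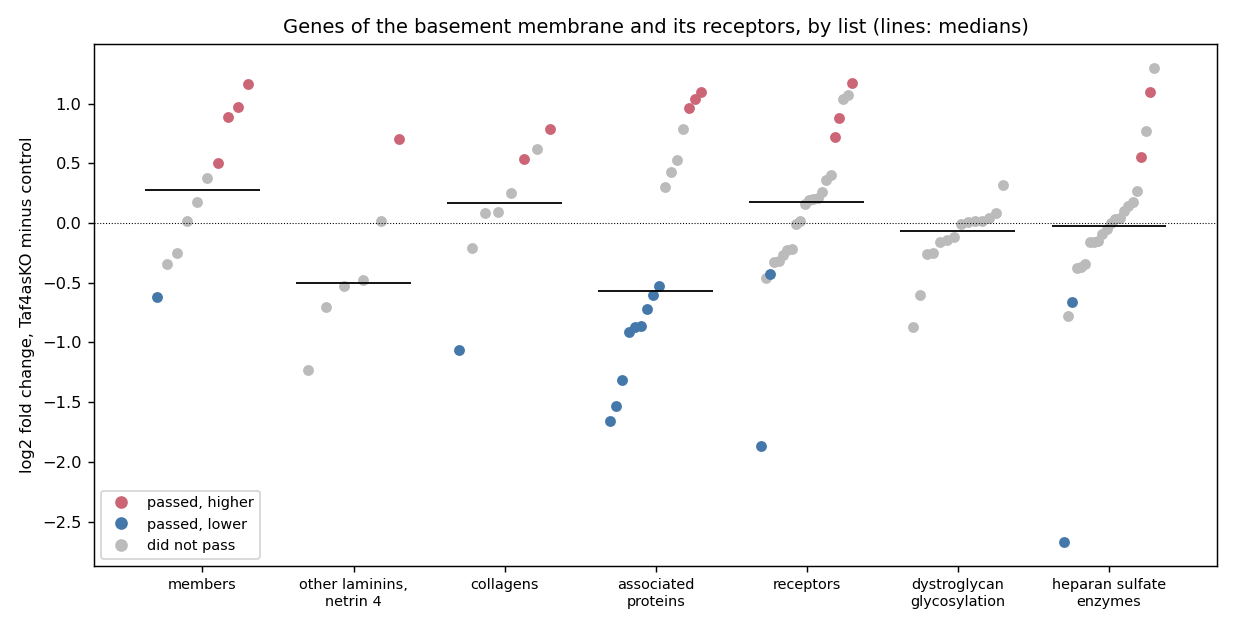
Log2 fold change of Taf4asKO minus control (y axis) for each tested gene of the 10 members and of 6 related lists (x axis), coloured by whether it passed, with a line at each median. The associated proteins have 9 of 16 genes below 0, all past the limits as lower, and 7 above 0, of which 3 passed, and the dystroglycan glycosylation enzymes hold 0 genes past the limits.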

How the data were processed

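Stranded total RNA libraries of sorted MuSCs were sequenced by the authors, who trimmed reads with Trimmomatic 0.39, aligned them to mm10 with STAR 2.6.0c, counted reads over exons with featureCounts 1.6.0 without multi-mapped or multi-gene reads, and normalized with DESeq2 1.14.1 (versions per the submitters' processing notes). The deposited values are a score: scaled read numbers (1 size factor for each library), rounded to integers, so no count model was used. Size factors were inferred from gaps between the integers used, within 0.12% on 7 simulated libraries, and give 10588144 to 17611845 reads per library. No 2 libraries of a group differed by as little as sampling noise (chi-square over degrees of freedom, 4.12 to 36.6).

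Genes with a mean of at least 5 (18562) entered a fit with limma 3.58.1 under R 4.3.3 (lmFit, eBayes with trend, two-sided) on log2(value + 1), a scale that understates changes of low genes, with Benjamini-Hochberg adjustment over all tested genes. Limits were an adjusted p of 0.05 and 1.3-fold, after the study's methods, which name no covariate. On simulated data of 18608 genes 192 calls were made, 185 of them among 200 genes with a set change and 7 false. These counts check that the procedure runs as intended and hold for the simulated spread and changes only. The share of true changes found and of false calls in the 6 real libraries was not tested. Shares and ratios were compared by exact permutation tests (20 assignments). Exon lengths, GC content and overlapping genes are from GENCODE M21 (mm10), which held 99.8% of the gene identifiers, and positions are those of the deposited table.

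The labels number the libraries 1 to 3 in both groups and the study used littermate controls, without linking these to the numbers. Deviations from the group means correlated at 0.235, 0.126 and 0.15 across genes for equal numbers and at -0.149 to 0.0141 for unequal ones, so the numbers were taken as pairs in the fit with a replicate block. Deviations cancel out over the 3 libraries of a group, so the unequal values are not independent of the equal ones. The pairing was thus read from the same data as the blocked fit, and the labels do not state it. The study speaks of biological replicates without saying how animals were assigned to these libraries, and p-values measure the spread between them.

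Named genes are the 10 members and, of each related list, up to 8 genes past the limits with a mean of at least 50, by size of change. Members, lists and tests were chosen with earlier results of these data known. The covariates of glial, mural and endothelial markers and the sum over 5 alpha chains were added after seeing the data. Of 25 alternative fits, the closing section gives values for those that changed a call or a count and names the others. Figures were drawn with matplotlib 3.10.9.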

Additional observations from a re-analysis of the deposited data

How the results depend on the processing

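Of the 10 genes, *Nid1* passed in all 22 alternatives chosen at the outset and *Lama4*, *Lamb1* and *Agrn* each in 16, *Lama5* in 15, while *Lama2*, *Lamb2*, *Lamc1* and *Hspg2* passed in 0. Leaving out 1 library gave 1 to 5 of the 10 genes past the limits (0 to 1 lower, 1 to 4 higher), 14 to 28 related genes (8 to 15 lower, 5 to 15 higher) and 956 to 3096 genes in the whole table (595 to 1489 lower, 350 to 1607 higher). Log2 fold changes then ranged from 0.55 to 1.06 for *Lama4*, 0.63 to 1.20 for *Lamb1*, 0.34 to 0.60 for *Agrn*, 0.92 to 1.3 for *Nid1*, 0.23 to 0.50 for *Nid2*, -0.78 to -0.41 for *Lama5*, -0.39 to -0.26 for *Hspg2*, -0.30 to -0.15 for *Lamc1*, 0.11 to 0.24 for *Lamb2* and -0.016 to 0.063 for *Lama2*. The share differences ranged from 4.19 to 6.18 percentage points for *Lama4*, -9.47 to -5.59 for *Lama5* and 0.019 to 3.3 for *Lama2*, and the log2 ratio differences from -0.989 to -0.523 for *Lamb2* to *Lamb1* and -0.838 to -0.689 for *Nid2* to *Nid1*. Of the dystroglycan enzymes, 0 to 2 passed. The same fits passed 1 to 3 of the other laminins with *Ntn4*, 2 to 4 collagen genes and 6 to 12 associated proteins. They also passed 3 to 7 receptors and 1 to 5 heparan sulfate enzymes. With 5 alpha chains in the sum the difference in the *Lama2* share was 5.79 percentage points in place of 2.2.

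With an adjusted p under 0.01 the counts were 1 of the 10 genes (0 lower, 1 higher), 12 related genes (7 lower, 5 higher) and 876 genes in all (545 lower, 331 higher). With a limit of 2-fold they were 1 (0 lower, 1 higher), 10 related genes (6 lower, 4 higher) and 850 (520 lower, 330 higher). Both limits left *Lama4* at 0.89, *Lama5* at -0.62, *Lamb1* at 0.97 and *Agrn* at 0.50 without a call. Robust shrinkage left 3 of the 10 genes (2 higher), without *Lama4* (0.89) and *Lamb1* (0.97). The replicate block gave 1688 higher genes in all, 18 higher related genes and a call for *Nid2* (0.38) and changed no other call among the 10 genes. With GC and length adjustment 0 of the 10 genes were lower, with *Lama5* at -0.50, *Lama2* at -0.011, *Hspg2* at -0.21 and *Lamb2* at 0.29, and with the block in addition *Lama5* (-0.50) passed, 1718 genes and 17 related genes were higher, *Nid2* (0.44) passed and *Lama2* was at -0.011. Upper-quartile scaling put *Lama2* at -0.0097.

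With the glial covariate 0 of the 10 genes passed (0 lower, 0 higher), 8 related genes (7 lower, 1 higher) and 707 genes in all (479 lower, 228 higher), with *Lama2* at -0.087, *Lama4* at -0.006, *Lama5* at -0.89, *Lamb1* at 0.088, *Lamb2* at -0.036, *Nid1* at 0.56, *Nid2* at -0.035 and *Agrn* at 0.085. With the mural covariate 1 passed (0 lower, 1 higher), 13 related genes (8 lower, 5 higher) and 1112 in all (700 lower, 412 higher), with *Lama2* at -0.052, *Lama4* at 0.25, *Lama5* at -0.76, *Lamb1* at 0.38 and *Agrn* at 0.22. With the endothelial covariate 2 passed (1 higher), 16 related genes (5 higher) and 1214 in all (722 lower, 492 higher), with *Lama2* at -0.019, *Lama4* at 0.43, *Lamb1* at 0.51 and *Agrn* at 0.28. The cause of these changes was not tested. Total-count and trimmed-mean scaling, scaling without abundant genes, pseudocounts of 0.1 and 8, no filter, a mean of at least 50, limma-voom on estimated reads and the fibro-adipogenic covariate changed no call or direction among the 10 genes and moved no count given here by over 1.5 times. With 3 libraries a group, the exact tests of shares and ratios could not go under p = 0.1.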
